A study of Mus musculus with 2 samples.

Results

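Septoclasts are cells at the border between growth plate and metaphysis of long bones that break down cartilage. Here they were chosen by their measured transcripts, in single-cell RNA sequencing of mouse femur and tibia. A cell was selected on its unique molecular identifiers (UMIs), each of which marks 1 captured RNA molecule. The gate asked for at least 1 UMI of Mmp9, for UMIs of at least 2 of the 5 markers Sstr2, Thy1, Aldh1a3, Cysltr2 and Cd55, and for none of the 3 osteoclast genes Dcstamp, Ocstamp and Atp6v0d2. It also asked for no UMI of the endothelial gene Cdh5 or the leukocyte gene Ptprc and for under 5 UMIs of the cartilage gene Acan. The gate found 419 septoclasts among 55783 kept cells, 176 in the Control library and 243 in the Dach1OE library. Kept cells without Cdh5 and Ptprc and with under 5 Acan UMIs are called eligible cells below, and there were 22928 of them, septoclasts included.

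Both libraries came from C57BL/6 mice at postnatal day 30 that had received tamoxifen, and each pooled 2 mice, male and female. The Control genotype was Dach1OE +/f, so the Control mice carried the inducible Dach1 allele as well. The Dach1OE genotype was Apj CreERT2 - Dach1OE +/f, with a Cre driven by Aplnr (also called Apj), a gene of capillary endothelium. Aplnr had UMIs in 7 Control and 4 Dach1OE septoclasts, at most 1 in any cell. The epiphysis had been removed. Blood cells had been depleted before capture, with a lineage depletion kit and then by CD45 and CD117. Each group had 1 library, so none of its differences could be tested, and every interval in parentheses is a 95% interval that covers counting error only. These are exact, except that differences in share have Newcombe's score interval, which is approximate. In cells with a Cdh5 UMI, Dach1 was at 4.95 UMIs per 1000000 UMIs (CPM) in Control and at 135 CPM in Dach1OE. In septoclasts it had 0 UMIs in Control, for which the limit of 3 UMIs is 3.47 CPM, and 6 UMIs in Dach1OE, or 4.68 CPM (1.72 to 10.2). The other eligible cells of the Dach1OE library were at 12.5 CPM, so no Dach1 above its surroundings was detectable in septoclasts at this depth.

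Septoclasts are mononuclear and are thought to be of pericyte or stromal origin. Osteoclasts, in contrast, are multinucleated cells of the blood lineage that resorb mineralized matrix. Septoclasts lie beside the invading capillaries of the metaphysis and degrade the transverse septa of the cartilage, so that vessels can advance into it. They are known for metalloproteinases and cathepsins, for the fatty acid-binding protein Fabp5 and for a dependence on Notch signalling. Fabp5 was the only septoclast marker that the gate did not use, and it serves here as the check of the label.

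Promoter sequences are shown for 3 genes, not used by the gate, that in septoclasts stood far above the other eligible cells summed. Hey2 was not far above the pericyte-like cells among them (described below). Mmp13 encodes a collagenase that cleaves cartilage collagen, Mmp14 a membrane-bound metalloproteinase that activates other proteases, and Hey2 a transcriptional repressor switched on by Notch. The sequences are from RefSeq on GRCm38.p6, run from 250 bases before to 50 bases after the transcription start, and are written 5′ to 3′ on the strand of the gene. Capitals mark matches on either strand to TGANTCA (AP-1), TGTGGT (RUNX, a skeletal factor family) or GTGGGAA (RBPJ, the DNA-binding partner of Notch). The windows are chr9:7272264-7272563 on the plus strand for Mmp13, chr14:54431348-54431647 on the plus strand for Mmp14 and chr10:30842734-30843033 on the minus strand for Hey2.
Mmp13: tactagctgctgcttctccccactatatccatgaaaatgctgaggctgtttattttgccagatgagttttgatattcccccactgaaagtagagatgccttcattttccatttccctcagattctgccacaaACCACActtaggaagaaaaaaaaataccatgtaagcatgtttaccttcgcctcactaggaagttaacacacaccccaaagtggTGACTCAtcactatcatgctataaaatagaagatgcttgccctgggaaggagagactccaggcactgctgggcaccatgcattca
Mmp14: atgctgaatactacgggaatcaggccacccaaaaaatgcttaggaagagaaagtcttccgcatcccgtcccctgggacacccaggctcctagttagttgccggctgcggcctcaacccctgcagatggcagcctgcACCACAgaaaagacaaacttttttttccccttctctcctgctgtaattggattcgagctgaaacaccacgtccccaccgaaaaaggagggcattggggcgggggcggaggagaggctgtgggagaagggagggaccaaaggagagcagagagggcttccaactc
Hey2: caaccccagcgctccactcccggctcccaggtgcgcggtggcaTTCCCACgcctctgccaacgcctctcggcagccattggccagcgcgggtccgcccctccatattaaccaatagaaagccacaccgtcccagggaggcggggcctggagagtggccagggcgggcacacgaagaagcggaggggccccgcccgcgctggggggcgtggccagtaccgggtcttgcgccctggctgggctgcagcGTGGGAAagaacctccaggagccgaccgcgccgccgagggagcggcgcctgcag
Counted to the first base of each match, the Mmp13 window held AP-1 at -35 and RUNX at -118 from the start, the Mmp14 window RUNX at -114, and the Hey2 window RBPJ at -207 and -4. None of these matches overlapped. Of the 20 genes that stood furthest above the other cells (described below), 16 had a promoter in the table, of which 1 held AP-1, 5 held RUNX and 2 held RBPJ. A gene was counted if any of its promoters held the match. Counted in this way, the same matches were in 8.97%, 18.9% and 7.25% of all 27025 genes with a promoter. They were in 5.27%, 13.5% and 6.83% of the 5006 of these with at least 50 UMIs in septoclasts. A match describes the letters of a window and is not a measured binding site.

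The septoclasts held 864501 UMIs in Control and 1281263 in Dach1OE, out of 143986818 and 166999989 UMIs in the libraries. The median septoclast had 4580 and 4766 UMIs and 2110 and 2127 genes, against 3343 and 3455 UMIs in the other eligible cells. The 2 tables shared 1049 cell indices, none of them between septoclasts of both libraries. Levels below are CPM of the UMIs summed over the cells of a library, Control first and Dach1OE second. In such sums, fewer cells of a kind and less RNA per cell cannot be told apart.

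The label held for Fabp5, a carrier of fatty acids, over all septoclasts summed. It was at 1147 CPM (1077 to 1221) and 1518 CPM (1451 to 1587) in septoclasts and at 77.5 and 111 CPM in the other eligible cells. A Fabp5 UMI was found in 54.0 and 58.8% of septoclasts and in 16.8 and 23.4% of the other eligible cells. When each cell was thinned to 1000 UMIs, these shares were 33.5 and 32.9% against 5.74 and 7.9996%. Cells with 5 or more Acan UMIs served as background and gave 2.56 and 3.36% after the same thinning (unthinned 18.6 and 22.2%, at a median of 10368 and 9926 UMIs). Cells with a Cdh5 UMI gave 7.06 and 10.5% after thinning. Both libraries thus had Fabp5 in septoclasts above both backgrounds, although many septoclasts had no Fabp5 UMI. Pericyte-like cells, described below, held Fabp5 as well. The label did not hold in all septoclasts with little Mmp9. Fabp5 was below the other eligible cells in Control cells with 1 Mmp9 UMI (60.2 CPM) and in Dach1OE cells with 2 to 4 (40.1 CPM). It was above them in Dach1OE cells with 1 (269 CPM) and in Control cells with 2 to 4 (200 CPM). With 5 to 19 Mmp9 UMIs it was at 152 and 381 CPM.

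Defining markers of osteoclasts were close to 0. Of 9 osteoclast markers measured, Csf1r, the receptor for the growth factor of that lineage, had no UMI in either library, and Acp5, the tartrate-resistant phosphatase, was at 2.31 and 3.12 CPM. The 9 markers summed to 364 and 329 CPM, against 275 and 242 CPM in the other eligible cells, and most of the sum was Ctsk (230.2 and 220.1 CPM) and Itgb3 (116 and 82.7 CPM), which stromal cells also hold. The 3 osteoclast genes of the gate removed 3 and 4 eligible cells. No cell of either library met the criterion for osteoclast-marker cells, even without the limits on Cdh5, Ptprc and Acan.

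Other blood cells were also scarce among septoclasts. Blood cells had been depleted and the gate asked for no Ptprc UMI, so this scarcity was in part set beforehand. The 10 neutrophil markers summed to 6.94 and 40.6 CPM, with 6 of 10 at 0 in each library, against 179 and 193 CPM in the other eligible cells. Of their 52 UMIs in Dach1OE septoclasts, 42 were of Mpo in 1 cell. Neutrophils hold Mmp9 as well, and these values show few of their transcripts in the chosen cells. The 10 macrophage markers summed to 93.7 and 69.5 CPM, with Csf1r, Adgre1, C1qa and C1qb at 0 in both libraries. The 9 endothelial markers other than Cdh5 summed to 161 and 172 CPM, with none at 0, against 376 and 316 CPM in the other eligible cells.

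The gate genes themselves describe the choice and nothing more. Mmp9, a gelatinase, was at 21291 and 22549.6 CPM against 95.0 and 144 CPM in the other eligible cells. The somatostatin receptor gene Sstr2 was at 547 and 514 CPM against 2.94 and 2.21 CPM, and the leukotriene receptor gene Cysltr2 at 119 and 162 CPM against 11.3 and 13.4 CPM. Aldh1a3, which makes retinoic acid, was at 267 and 201 CPM against 12.4 and 12.5 CPM, Thy1 at 397 and 446 CPM against 72.3 and 92.8 CPM and Cd55, a complement regulator, at 411 and 375 CPM against 47.3 and 47.9 CPM. A UMI of Sstr2 was found in 67.0 and 61.3% of septoclasts and one of Cd55 in 79.0 and 68.7%, so no single marker was present in all of them.

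Genes that the gate did not use also stood above the other eligible cells. Comparisons of septoclasts with other cells are a description, because the gate is itself a readout. Of 3255 genes at 50 CPM or more in septoclasts of both libraries, 85 (2.61%) were at least 4-fold above the other eligible cells in both and 12 (0.369%) at least 4-fold below. Among the 20 furthest above were Mmp13, Cacng4, Adra2a, Fabp5, Cemip, Wdr72, Cldn1, Mmp14, Wnt4, C6, Ctsc, Arnt2, Npl, Ptch1, Kank4, Mmp11, 4833422C13Rik, Btla and Hey2.

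Of the metalloproteinases, Mmp13 stood furthest above the other cells. It was at 19137 and 13503 CPM against 1048 and 645 CPM in the other eligible cells, with log2 ratios of 4.19 and 4.39. Mmp14 was at 4766 and 4375 CPM against 433 and 399.9 CPM (3.46 and 3.45), and Mmp11, stromelysin 3, at 254 and 229 CPM against 31.0 and 23.0 CPM (3.04 and 3.31). These were the 3 of 5 metalloproteinases, Mmp9 apart, that were past 2-fold above the other eligible cells in both libraries. The gelatinase Mmp2 was nearer to them, at 626 and 525 CPM against 454 and 466 CPM. Over all 6328 genes with at least 50 UMIs, 9.91% were past 2-fold above in both libraries and 2.47% past 2-fold below. These shares are the background for the counts of this kind below.

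Proteases outside this family were also above the other eligible cells. Of 11 cathepsins and related enzymes 5 (45.5%) were past 2-fold above in both libraries and 1 (9.09%), Ctse, below. Ctsc, a dipeptidyl peptidase, was at 418 and 349.7 CPM against 45.6 and 33.6 CPM, and Lgmn, the lysosomal asparaginyl endopeptidase, at 273 and 203 CPM against 59.2 and 45.1 CPM. Ctsb, a cysteine protease that septoclasts are known for, was at 1385 and 1026 CPM against 532 and 366 CPM. Cells with a Cdh5 UMI, which the gate left out, held Ctsb at 1845 and 983 CPM. All 14 listed cathepsins and related enzymes summed to 3398 and 2775 CPM in septoclasts and 1565 and 1276.5 CPM in the other eligible cells. Nearer to septoclasts were diaphyseal stromal-like cells (2495 and 2256 CPM) and metaphyseal stromal-like cells (2359 and 2220 CPM). Ctsk, the collagenase of osteoclasts, did not pass 2-fold, with 139 and 126 CPM in the other eligible cells. Of 8 ADAM and ADAMTS proteases 3 (37.5%) were past 2-fold above, among them the aggrecanase Adamts4 at 83.3 and 139 CPM against 16.3 and 14.7 CPM. All 10 listed genes of this kind summed to 1228 and 1252 CPM in septoclasts, 635 and 486 CPM in the other eligible cells, 1246 and 1238 CPM in pericyte-like cells and 1492 and 1413 CPM in diaphyseal stromal-like cells, so this sum was no higher in septoclasts than in the latter.

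Inhibitors of proteases were present in the same cells. Serpine2, an inhibitor of plasminogen activators and thrombin, was at 8672 and 7270.2 CPM against 1336 and 1092 CPM. The tissue inhibitors of metalloproteinases Timp2 and Timp1 were at 1436 and 1093 CPM against 527 and 440.3 CPM and at 349 and 254 CPM against 117 and 121 CPM. In all, 3 of 8 inhibitors (37.5%) were past 2-fold above in both libraries, and Serpinf1 (12.5%) was past 2-fold below. All 11 listed inhibitors summed to 12650 and 10651 CPM in septoclasts and 4503 and 4426 CPM in the other eligible cells. The sum was 9251 and 9120 CPM in metaphyseal stromal-like cells and 6707 and 7093 CPM in pericyte-like cells. Cemip, which takes part in the breakdown of hyaluronan, was at 363 and 409 CPM against 26.4 and 33.0 CPM, and Npl, an enzyme of sialic acid breakdown, at 85.6 and 92.1 CPM against 9.83 and 8.14 CPM. Genes for matrix breakdown and genes for its inhibition thus stood side by side in these cells.

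The acidifying machinery that osteoclasts use was not as a whole above the other cells. Of 14 genes of the proton pump and lysosome 2 (14.3%) were past 2-fold above the other eligible cells and 1 (7.14%) past 2-fold below. Over all genes these shares were 9.91% and 2.47%, so the share above was near that of all genes. The pump subunit gene Tcirg1 was at 71.7 and 53.9 CPM against 22.2 and 16.5 CPM, and Lamp2, of the lysosomal membrane, at 596 and 475 CPM against 243 and 185 CPM. Car2, a carbonic anhydrase of osteoclasts and red cells, was lower in septoclasts, at 475 and 667 CPM against 2075 and 2304 CPM.

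Of 8 Notch genes 5 (62.5%) were past 2-fold above the other eligible cells in both libraries, beside 9.91% of all genes. All 13 listed Notch genes summed to 1363 and 1627 CPM in septoclasts, but pericyte-like cells held more, at 4028 and 4056 CPM. The receptor gene Notch1 was at 97.2 and 113 CPM against 28.7 and 27.8 CPM. The targets Hey1 and Heyl were at 189 and 187 CPM against 30.5 and 25.3 CPM and at 303 and 298 CPM against 68.2 and 54.5 CPM. Hey2, whose promoter is shown above, was at 60.2 and 74.9 CPM against 5.87 and 10.03 CPM, and it was at 50.5 and 47.0 CPM in pericyte-like cells. Among the 20 genes named above, Ptch1, receptor and target of hedgehog ligands, was at 342 and 225 CPM against 27.0 and 26.6 CPM, and the ligand gene Wnt4 at 192 and 189 CPM against 18.9 and 16.2 CPM. Adra2a, an adrenergic receptor gene, was at 68.2 and 114 CPM against 4.31 and 7.13 CPM, and at 94.2 and 97.0 CPM in pericyte-like cells.

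Tnfsf11, which encodes RANKL, a factor that osteoclasts need, was at 86.8 and 97.6 CPM against 21.4 and 9.84 CPM in the other eligible cells, and Csf1 at 636 and 526 CPM against 222 and 136 CPM. Both stood past 2-fold above in each library. All 5 listed genes of RANKL and CSF1 signalling summed to 739 and 644 CPM in septoclasts and to 1084 and 851 CPM in diaphyseal stromal-like cells, which were thus higher. Of 11 adhesion and invasion genes 5 (45.5%) were past 2-fold above the other eligible cells in both libraries. Among them were the integrin genes Itgav (460.4 and 446 CPM against 109 and 88.7 CPM) and Itga1 (539 and 686 CPM against 142 and 109 CPM). All 13 listed genes of this kind summed to 4611 and 4443 CPM in septoclasts, and diaphyseal stromal-like cells held nearly as much, at 4406 and 4228 CPM. Of 6 retinoid genes other than Aldh1a3, 3 (50%) were past 2-fold above as well. They included Rdh10, which turns retinol into retinal, at 35.9 and 41.4 CPM against 13.6 and 11.1 CPM. The sum of all 16 listed retinoid genes was 431 and 509.7 CPM in septoclasts, 476 and 373 CPM in the other eligible cells and 1055 and 1098 CPM in diaphyseal stromal-like cells, so diaphyseal stromal-like cells held the most of these.

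Comparison classes were taken by listed markers among the eligible cells outside the gate and are named only as like that type. Septoclasts shared Fabp5 with pericyte-like cells, which were at 632 and 483 CPM, and they also had the mural genes Cspg4 (244 and 344 CPM) and Pdgfrb (342 and 373 CPM). The leading pericyte gene Rgs5 was at 2051 and 3113 CPM in septoclasts, with UMIs in 31 and 68 of them, and at 27097 and 24631 CPM in pericyte-like cells. The 10 pericyte markers summed to 3569 and 5140.2 CPM in septoclasts, 2265 and 3387 CPM in the other eligible cells and 37412 and 34108 CPM in pericyte-like cells. Mmp13 was lowest in pericyte-like cells, at 14.6 and 98.0 CPM, and was at 2364 and 2268 CPM in metaphyseal stromal-like cells. No class reached the septoclast level of the genes plotted here. These are all among the 20 chosen for standing above the same cells, so this describes the choice. Adra2a, also among the 20 and not plotted, was higher in pericyte-like cells than in septoclasts in the Control library.

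**Figure D1:**
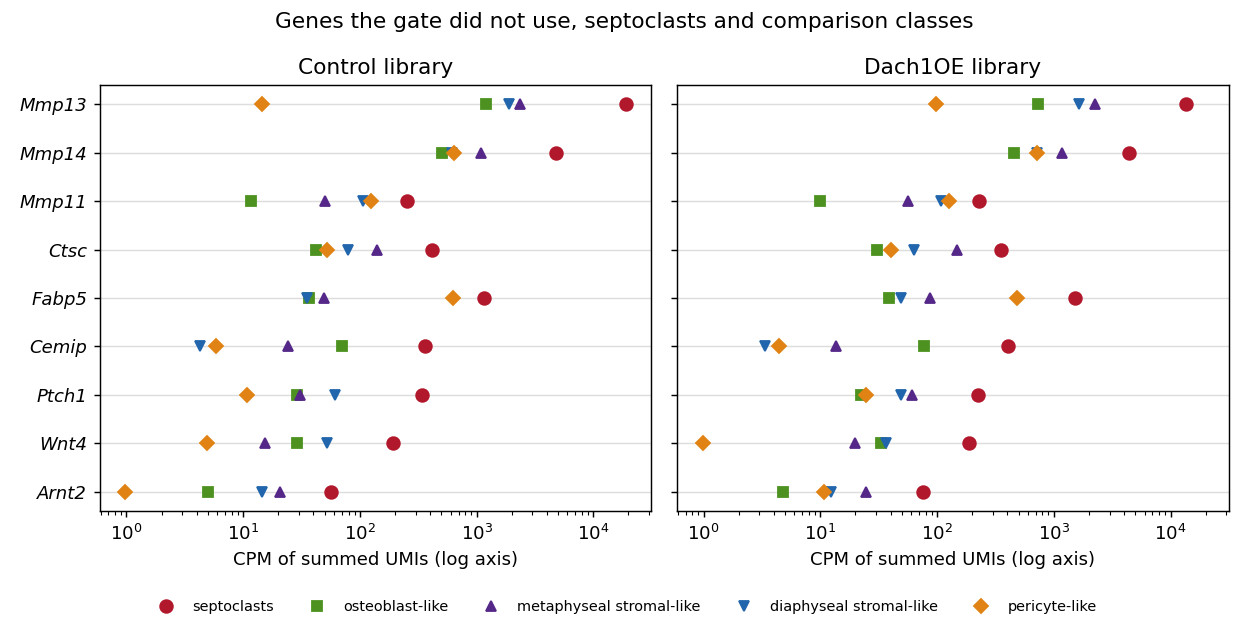
Levels of 9 of the 20 genes furthest above the other eligible cells, none used by the gate, in septoclasts and in 4 comparison classes of each library. Values are CPM of summed UMIs on a log axis. For each gene and in both libraries the septoclast point (red circle) lies to the right of the other classes, closest to them for Fabp5 in pericyte-like cells of Control and for Mmp11.

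Genes of bone matrix went both ways. Of 15 collagen and matrix genes 4 (26.7%) were past 2-fold above the other eligible cells in both libraries and 3 (20%) below. Of 8 osteoblast markers 2 (25%) were above and 3 (37.5%) below, beside 9.91% and 2.47% of all genes. Col1a1, the main collagen of bone, was at 7069 and 8479 CPM against 52744 and 64305 CPM in the other eligible cells, and Bglap, osteocalcin, at 368 and 265 CPM against 3833 and 4346 CPM. The osteoblast regulator Runx2 went the other way, at 349 and 279 CPM against 141 and 123 CPM, and so did the phosphatase gene Alpl, at 797 and 649 CPM against 306 and 286 CPM. Other matrix genes were above, such as Tnc, tenascin C, at 2951 and 1779 CPM against 1045 and 614 CPM and Spp1, osteopontin, at 3349 and 1719 CPM against 846 and 839 CPM. The Col1a1 gap lay in the sums, since the median cell had 6.5 and 6 UMIs in septoclasts and 6 and 6 in the others. All 15 collagen and matrix genes summed to 36186 and 38132 CPM in septoclasts and 359236 and 374791 CPM in osteoblast-like cells. They summed to 31166.5 and 31957 CPM in diaphyseal stromal-like, 40423 and 38347 CPM in pericyte-like and 86439 and 98518 CPM in metaphyseal stromal-like cells. Of 16 cell cycle genes 10 (62.5%) were past 2-fold below the other eligible cells in both libraries and none above. The proliferation marker Mki67 was at 87.9 and 74.1 CPM against 232 and 217 CPM. All 16 summed to 785 and 1075.5 CPM in septoclasts, 2197 and 2217 CPM in the other eligible cells and 914 and 1010 CPM in pericyte-like cells. The sum was lower than in septoclasts in osteoblast-like (327 and 241 CPM), diaphyseal stromal-like (561 and 680 CPM) and metaphyseal stromal-like cells (719 and 486 CPM).

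The septoclasts were not uniform. Those with exactly 2 of the 5 markers numbered 83 and 120, those with 3 numbered 57 and 71, those with 4 numbered 27 and 40 and those with all 5 numbered 9 and 12. Just outside the gate lay 163 and 238 eligible cells with Mmp9 and 1 marker. Fabp5 was at 133 and 369.96 CPM with 1 marker, at 489.9 and 541 CPM with 2 and at 2475 and 5264 CPM with all 5. Mmp14 was at 1719 and 1912 CPM with 1 marker, 3145 and 2955 CPM with 2 and 9087 and 7194 CPM with 5. Values just inside and just outside the threshold were thus closer to each other than either was to those of cells with all markers.

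Col1a1 and Cxcl12 were lower with 5 markers than with 2. Col1a1 was at 8366 and 13595 CPM with 2 markers, 9402 and 7037 CPM with 3 and 1238 and 661 CPM with 5. Cxcl12, a chemokine of marrow stromal cells, was at 3976 and 1933 CPM with 2 markers and at 212 and 297 CPM with 5. Ibsp, bone sialoprotein, kept no such order in Dach1OE, at 1112, 1466, 1977 and 1012 CPM with 2, 3, 4 and 5 markers. Depth moved with the marker number, from a median of 3982 and 4059.5 UMIs with 2 markers to 6658 and 5812 UMIs with 5, and its part in these orders was not tested.

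**Figure D2:**
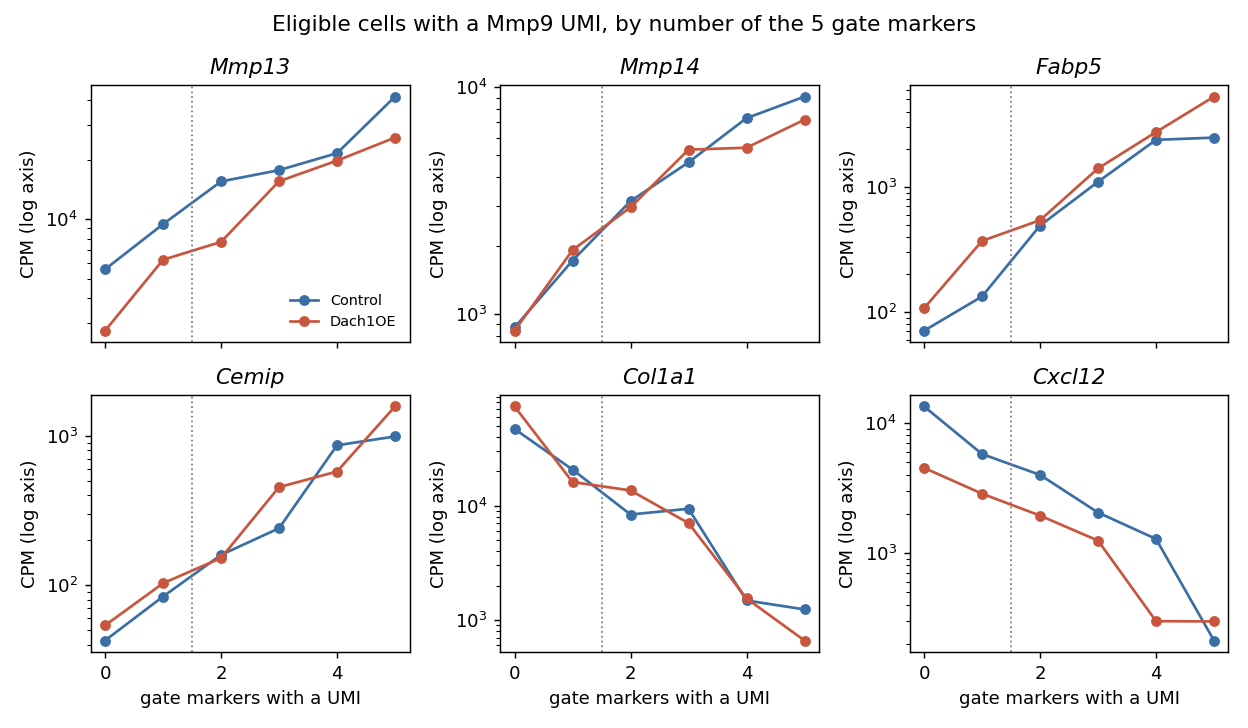
Levels of 6 genes (CPM, log axis) in eligible cells with a Mmp9 UMI, by the number of gate markers with a UMI, in Control (blue) and Dach1OE (red), with a dotted line at the gate. Mmp13, Mmp14, Fabp5 and Cemip are highest with 5 markers, whereas Col1a1 and Cxcl12 are lowest there.

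Mmp9 itself spanned a wide range. Its UMIs per septoclast ran from 1 to 889 with a median of 57.5 in Control and from 1 to 713 with a median of 54 in Dach1OE. The richest 18 Control cells held 42.2% of its UMIs and the richest 24 Dach1OE cells 38.7%. Fabp5 was more concentrated, with 68.5% and 65.3% in as many cells, and Col1a1 more so, with 80.0% and 84.7%. Cells with 20 or more Mmp9 UMIs made up 65.9% and 66.7% of septoclasts, and cells with 1 UMI 6.82% and 11.9%. In the former Fabp5 was at 1638 and 2097 CPM and Mmp13 at 22867 and 18526 CPM. In the latter Fabp5 was at 60.2 and 269 CPM and Mmp13 at 6682 and 1022 CPM. Cells with a single Mmp9 UMI thus had less of the genes that otherwise went with septoclasts.

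**Figure D3:**
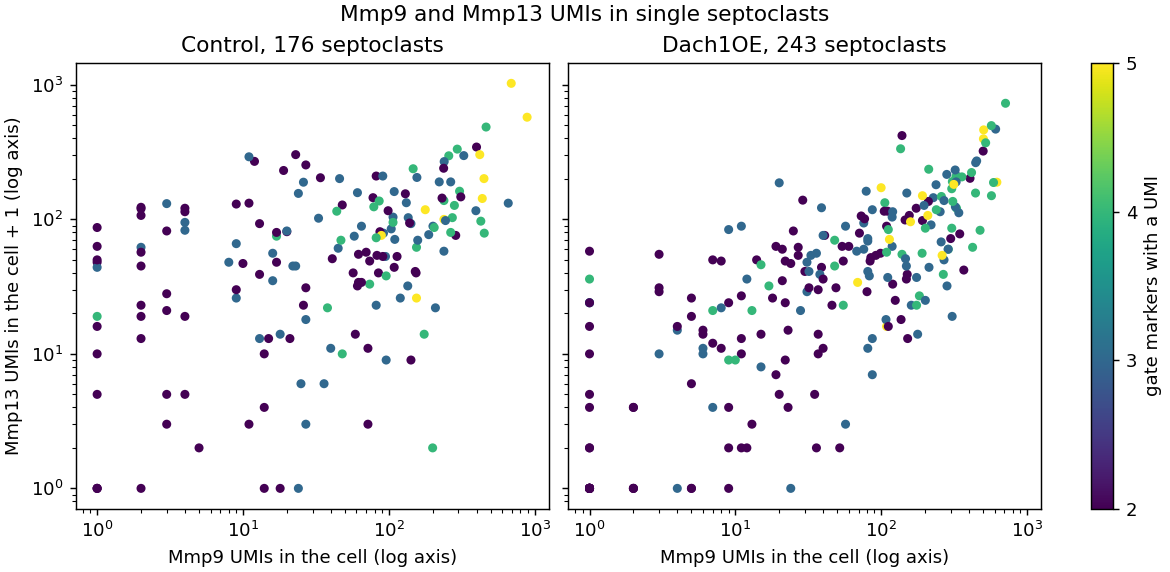
UMIs of Mmp9 and of Mmp13 (plus 1) in each of 176 Control and 243 Dach1OE septoclasts, on log axes, coloured by the number of gate markers with a UMI. Cells with all 5 markers lie at 69 or more Mmp9 UMIs, and cells without Mmp13 at 24 or fewer.

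A comparison of whole profiles used neither the gate genes nor the class markers. Each cell was assigned to the class of the other library whose summed profile its log2(CPM + 1) values correlated with best, over 4725 genes for Control cells and 4746 for Dach1OE cells. Of Control septoclasts 80.1% (73.4 to 85.7) were closest to the Dach1OE septoclasts, and of Dach1OE septoclasts 82.3% (76.9 to 86.9) to the Control septoclasts. The next class for Control was metaphyseal stromal-like, with 11.4%, and for Dach1OE pericyte-like, with 7.82%. By marker number the share was 68.7% and 69.2% with 2 markers, 87.7% and 93.0% with 3 and 92.6% and 97.5% with 4. It was 44.8% and 49.6% for the Mmp9 cells with 1 marker, which the gate had left out. Cells were not thinned for this comparison, and their depth also moved with the marker number.

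Some septoclasts also met the criterion for osteoblast-like cells, 69 (39.2%) in Control and 81 (33.3%) in Dach1OE. Their Mmp9 was at 19427 and 18058 CPM, against 22769.6 and 25235 CPM in the remaining septoclasts. Their Col1a1 was at 13185 and 18381 CPM against 2217 and 2560.1 CPM, sums that a few cells may carry, since the median septoclast had 6.50 and 6 Col1a1 UMIs and the richest 1930 and 2284. The gate fixed the presence of Mmp9 and the criterion used osteoblast markers, so both values describe the split. The osteoblast-like class held 1565 of 11121 and 2051 of 11388 other eligible cells, without cells that met more than 1 criterion. Septoclasts met the metaphyseal stromal-like criterion in 24 and 16 cells, the diaphyseal stromal-like in 14 and 6 and the pericyte-like in 10 and 18. Scrublet, a caller of doublets, marked 7 septoclasts in each library (3.98% and 2.88%), against 6.53% and 6.60% of all kept cells.

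The comparison of Control with Dach1OE asks whether septoclasts differ when Dach1 is switched on in capillary endothelium. Septoclasts were 1.56% of eligible cells in Control and 2.09% in Dach1OE, a difference of 0.531 percentage points (0.185 to 0.880). With at least 3 of the 5 markers the difference was 0.234 points (-0.0166 to 0.487), an interval that includes 0. Of all kept cells they were 0.665% and 0.829%. Cells with UMIs of Xist alone and cells with UMIs of 4 Y-linked genes alone each stand for 1 mouse per library. Many septoclasts are in neither set and count only in the totals. UMIs of neither kind were found in 63 Control and 80 Dach1OE septoclasts, and UMIs of both kinds in 5 and 12. In the Xist cells the shares were 1.82% and 1.79%, a difference of -0.0286 points (-0.623 to 0.584). In the Y-linked cells they were 1.47%, from 31 septoclasts, and 3.62%, from 88, a difference of 2.16 points (1.25 to 3.08). The higher share in Dach1OE thus stood in the Y-linked cells, 1 mouse against 1 mouse, and group, animal and library cannot be told apart in it.

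**Figure D4:**
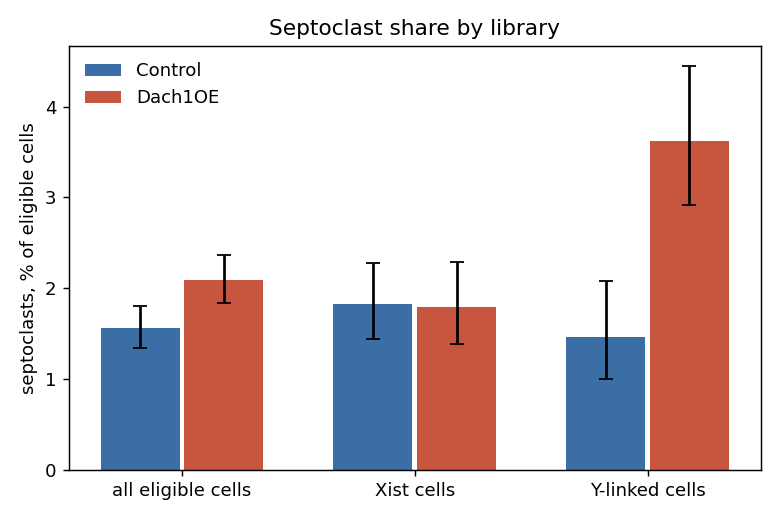
Septoclasts as a percentage of eligible cells in Control (blue) and Dach1OE (red), over all cells and within Xist cells and Y-linked cells. Bars start at 0 and error bars are exact 95% binomial intervals, which overlap in the Xist cells and stand apart in the Y-linked cells.

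Mmp13, Mmp14 and Fabp5, which the gate did not use, stayed within 2-fold between libraries over all septoclasts. On the log2 scale of Dach1OE over Control, the gate genes Mmp9 and Sstr2 were at 0.083 (0.056 to 0.11) and -0.091 (-0.26 to 0.082). These values describe the choice, which used both genes in both libraries. Mmp13 was at -0.50 (-0.53 to -0.47), Mmp14 at -0.12 (-0.18 to -0.065) and Fabp5 at 0.40 (0.29 to 0.52). In the Xist and the Y-linked cells, however, Fabp5 was at -0.38 and 1.96. Median log2 ratios were -0.15 for 5 metalloproteinases, -0.12 for 11 cathepsins, -0.18 for 8 inhibitors, -0.043 for 14 proton pump and lysosome genes and 0.20 for 8 Notch genes, beside 0.013 for all 6328 genes. In the Xist and the Y-linked cells the medians were -0.35 and 0.16 for the metalloproteinases and 0.12 and -0.18 for the Notch genes, so both had opposite signs in the 2 pairs of mice. They were -0.41 and -0.15 for the cathepsins, -0.19 and -0.21 for the inhibitors and -0.16 and -0.20 for the proton pump and lysosome genes. None of the members of these lists was past 2-fold. Of the 6328 genes, 93 (1.47%) were past 2-fold higher in Dach1OE and 33 (0.521%) past 2-fold lower. Of these, 72 and 26 had the same sign in the Xist and in the Y-linked cells. Few of them were past 2-fold within a pair, where fewer genes had 50 UMIs. Of 2688 genes in the Xist cells 42 were past 2-fold higher, 8 of them among the 93, and of 2340 genes in the Y-linked cells 79 were, 6 of them among the 93.

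The higher genes with the largest ratios rested on few cells. Prg4, lubricin of joint and tendon surfaces, had 7 UMIs in Control and 695 in Dach1OE, a log2 ratio of 6.07 (5.02 to 7.39). Of its Dach1OE UMIs, 597 were in 1 cell, and 690 were in 5 cells with 3 or more Prg4 UMIs, 4 of which had under 3 Mmp9 UMIs. No Control septoclast had 3 Prg4 UMIs, while 324 Control and 266 Dach1OE cells among the other eligible cells did. Since these 5 cells were chosen by Prg4, leaving them out had to lower its ratio, to -1.01. Without them Igfbp6 (-0.30), Ly6c1 (-0.98) and Tppp3 (-0.52) turned from higher to lower. Cd34, a marker of fibroblasts and endothelial cells, went from 2.94 to 0.74, Clic5 from 2.75 to 0.18, Cdh13 from 2.43 to 0.83 and Rgcc from 2.12 to 0.95. So 7 of the 12 highest genes named here, Prg4 not counted, were no longer past 2-fold higher without 5 cells, and the number of genes past 2-fold higher was then 58.

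The remaining genes among these 12 were Ifit3, H19, Tfrc and Tspan15. H19, an imprinted non-coding RNA, had 10 and 83 UMIs, 58 of the latter in 1 cell, with a log2 ratio of 2.49 (1.53 to 3.60), and 1.05 in the other eligible cells. With at least 5 Mmp9 UMIs per cell the log2 ratio of H19 was 0.65 and that of Tfrc 0.92, neither past 2-fold. Tfrc, the transferrin receptor, had 9 UMIs in 7 cells and 50 UMIs in 12 cells (1.91, 0.87 to 3.12). Tspan15, a tetraspanin, had 14 UMIs in 7 cells and 73 UMIs in 32 cells (1.81, 0.98 to 2.76), with at most 7 UMIs in 1 cell. Of the 12 genes, Tspan15 had UMIs in the most Dach1OE septoclasts.

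Interferon-response genes were a list with several members past 2-fold. Of 8 with at least 50 UMIs, 4 were past 2-fold higher and none lower, beside 1.47% and 0.521% of all 6328 genes. The list's median log2 ratio was 0.78, with 0.47 and 0.46 in the Xist and the Y-linked cells. Ifit3 had 7 UMIs in 7 Control cells and 64 UMIs in 21 Dach1OE cells (2.63, 1.4996 to 3.996). Isg15 had 21 and 83 UMIs (1.42, 0.71 to 2.18), and Ifit1 had 19 and 69 (1.29, 0.54 to 2.11). Cxcl10, an interferon-induced chemokine, had 4 UMIs in 1 Control cell and 66 UMIs in 3 Dach1OE cells, 56 of them in 1 cell. Of the other members, Bst2, Oasl2 and Ifi27 were at 0.28, -0.031 and -0.26. In the other eligible cells the median of the list was -0.67, on the other side of 0. Those cells mix classes whose numbers differed between libraries, and the part of this was not tested. All 10 listed genes summed to 372 and 558 CPM in septoclasts and to 233 and 161 CPM in the other eligible cells. The sum was 668 and 617 CPM in diaphyseal stromal-like cells and 285 and 355 CPM in metaphyseal stromal-like cells. In pericyte-like cells it was 296 and 315 CPM, and in osteoblast-like cells 80.3 and 65.7 CPM.

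Genes lower in Dach1OE were mostly spread over more cells. Cxcl14, a chemokine, had 218 UMIs in 30 Control septoclasts and 50 UMIs in 15 Dach1OE septoclasts, 252 CPM (219.8 to 288) and 39.0 CPM (29.0 to 51.4). Its log2 ratio was -2.69 (-3.17 to -2.24), with -3.13 in the Xist cells, -2.36 in the Y-linked cells and -1.25 in the other eligible cells. The same sign in both pairs of mice was a condition for naming it, and it was also lower outside the gate. Angptl4, an inhibitor of lipoprotein lipase, had 78 UMIs in 62 cells and 46 UMIs in 40 cells (-1.33, -1.89 to -0.79), and was at -1.58 in the other eligible cells. Enpp5, of a family of phosphodiesterases, had 41 UMIs in 33 cells and 14 UMIs in 14 cells (-2.12, -3.11 to -1.21). Cd59a, which encodes an inhibitor of complement, was at -1.37 (-2.11 to -0.65) and at -0.086 in the other eligible cells. Neat1, a nuclear non-coding RNA, rested on 1 cell, which held 99 of its 172 Control UMIs, and without the richest cell of each library its log2 ratio went from -1.53 to -0.49.

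**Figure D5:**
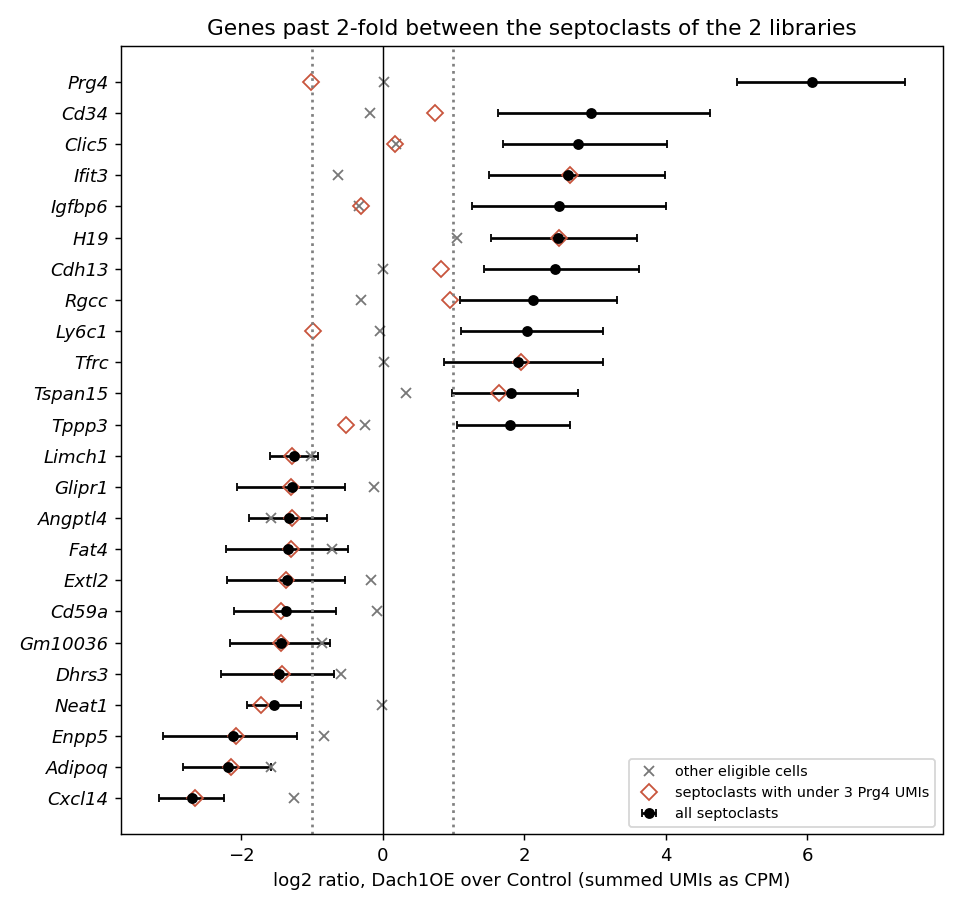
Log2 ratio of Dach1OE over Control in septoclasts (black points with 95% counting intervals) for the 12 highest and 12 lowest genes with the same sign in Xist and Y-linked cells, with grey crosses for the other eligible cells. Red diamonds give the ratio in septoclasts with under 3 Prg4 UMIs, which falls under 1 for Prg4, the gene these cells were chosen by, and for 7 of the other 11 higher genes. The lower genes stay below -1, but all 5 cells left out are of Dach1OE, so this could hardly bring them nearer to 0.

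The remaining lower genes were Adipoq, Dhrs3, Gm10036, Extl2, Fat4, Glipr1 and Limch1, with log2 ratios from -2.18 to -1.25. Adipoq, adiponectin of marrow stromal and fat cells, was at 109.9 and 24.2 CPM in septoclasts and at 1081 and 362 CPM in the other eligible cells. It is 1 of 7 diaphyseal stromal markers, of which 3 were past 2-fold lower in septoclasts, beside 0.521% of all 6328 genes. The median of these markers was -0.40 in septoclasts (-0.32 and -1.33 in the Xist and the Y-linked cells) and -1.31 in the other eligible cells. All 8 listed markers together summed to 3432 and 1933 CPM in septoclasts and to 8922 and 3302 CPM in the other eligible cells, so the sum was lower in Dach1OE on both sides of the gate. Eligible diaphyseal stromal-like cells numbered 1562 in Control and 533 in Dach1OE, and their part in this was not tested, nor was that of free RNA. Dhrs3, which turns retinal into retinol, was the 1 of 6 retinoid genes past 2-fold.

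The other lists had few members past 2-fold. Over all 6328 genes, 1.47% were past 2-fold higher and 0.521% lower. The medians of the lists are followed by those in the Xist and in the Y-linked cells. The cell cycle list had a median log2 ratio of 0.51 (Xist and Y-linked cells 0.62 and 0.64) with 1 of 16 members past 2-fold, Mcm5, a replication helicase subunit, at 1.29 (0.68 to 1.94). The collagen and matrix list had a median of 0.18 (0.040 and -0.32), which thus turned sign in the Y-linked cells, with none of 15 past 2-fold. Within it the basement membrane chains Col4a1 and Col4a2 were at 0.67 and 0.70, and Spp1 was at -0.96 (-1.04 to -0.88), with 0.26 in the Xist cells and -1.63 in the Y-linked cells. The pericyte markers had a median of 0.51 (0.048 and 0.21), nearer to 0 within both pairs, with Rgs5 at 0.60 (0.52 to 0.68), and a median of 0.49 in the other eligible cells. Rgs5 was at 2386 and 2435 CPM in the Xist cells and at 2567 and 2977 CPM in the Y-linked cells. In septoclasts with UMIs of neither kind it was at 1402 and 4643 CPM. Of 6 complement genes 1 was past 2-fold lower, Cd59a, and the list's median was -0.72 (-0.25 and -1.61), against -0.70 in the other eligible cells. Of 6 fibroblast markers, Cd34 and Ly6a were past 2-fold higher, and without the 5 Prg4 cells they were at 0.74 and -0.34. Eligible pericyte-like cells numbered 330 in Control and 663 in Dach1OE.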

How the data were processed

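Cells of femur and tibia were profiled on the BD Rhapsody platform, 1 library per group. Per the file headers, the authors' tables hold molecule counts per cell and gene, error-corrected by the BD Rhapsody WTA Analysis Pipeline 1.11, which counted intronic reads on GRCm38 (the methods name another version). Whether strand was used is not given in the sources used here. These raw counts (UMIs) were deposited without normalization.

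Cells with 500 to 6000 genes and under 25% mitochondrial UMIs were kept. UMIs were summed over the cells of a class and scaled to CPM. Genes with at least 50 septoclast UMIs were compared, and past 2-fold was the call. Intervals are exact (Clopper-Pearson for shares, Poisson for levels, conditional binomial for ratios), except those of differences in share, which are approximate (Newcombe's method from Wilson limits). Named genes were list members, the 20 furthest above the other eligible cells at 50 CPM or more, and the 12 highest and 12 lowest past 2-fold with the same sign in Xist and Y-linked cells, without haemoglobin, mitochondrial and sex-linked genes. The code was tested on simulated data. Alternatives were raw UMIs, stricter cell and gene limits, TMM scaling, per-cell means and left-out doublets. Members and lists were chosen with earlier results of these data known. Doublets were marked with Scrublet (scanpy 1.11.5) and kept. Python 3.11.15, scipy 1.17.1, R 4.3.3 and edgeR 4.0.16 (TMM factors only) were used. Some genes that the rule names are not reported here.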

Additional observations from a re-analysis of the deposited data

Results flagged for a closer look

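The 8 genes given here had log2 ratios on opposite sides of 0 in the 2 pairs of mice, at least 50 UMIs in each pair, and intervals that left out 0 in both. Only the listed genes and those named by the rules were searched, not all 6328 genes, so no share over all genes is given. Other genes among those searched differed in sign without meeting these conditions. The difference in share had opposite signs as well, although its interval in the Xist cells included 0. Each pair is 1 mouse per library, told apart only by the Xist or Y-linked UMIs of its cells, so none of these differences was tested. The difference in share, Dach1OE minus Control, was -0.0286 points (-0.623 to 0.584) in the Xist cells and 2.16 points (1.25 to 3.08) in the Y-linked cells.

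For 7 genes the log2 ratio of Dach1OE over Control was below 0 in septoclasts of the Xist cells and above 0 in those of the Y-linked cells. Fabp5, the fatty acid carrier gene, was at -0.38 (-0.57 to -0.19) and 1.96 (1.68 to 2.26). The values of Mmp9, the gelatinase of the gate, were -0.23 (-0.28 to -0.18) and 0.76 (0.71 to 0.82). The gate asked for Mmp9 in every cell, so these values describe the chosen cells only. Mmp11, stromelysin 3, was at -0.69 (-1.17 to -0.22) and 0.72 (0.15 to 1.33). These 3 genes are septoclast markers or genes of matrix breakdown. The values of Mmp13, the collagenase gene, were -0.37 (-0.42 to -0.31) and 0.078 (0.014 to 0.14). Mmp14, the membrane-bound metalloproteinase gene, was at -0.34 (-0.44 to -0.24) and 0.16 (0.04 to 0.28). Of the 7 genes, the next 2 are not among the septoclast genes named above. Fos, an immediate early gene, was at -1.27 (-2.13 to -0.47) and 1.45 (0.30 to 2.83). The values of Ibsp, bone sialoprotein, were -0.94 (-1.14 to -0.73) and 0.23 (0.06 to 0.41). Spp1, osteopontin, ran the other way, at 0.26 (0.14 to 0.39) in the Xist cells and -1.63 (-1.79 to -1.48) in the Y-linked cells.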

How the results depend on the processing

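No paired test was made, because the labels give 1 library per group, with no replicate numbers, and tie no cell to a mouse. The pairs of mice named here rest on the Xist and Y-linked UMIs of the cells and are described only. The difference in share (0.531 points) stayed above 0 under the alternatives except in the Xist cells, where it was -0.0286. It was 2.16 in the Y-linked cells and 0.164 as a share of all kept cells. With at least 3 of 5 markers it was 0.234, and that interval (-0.0166 to 0.487) included 0. The count of genes past 2-fold higher (93) was 60 with at least 3 markers, of which 24 were shared. It was 9 at a minimum of 200 UMIs, 649 at 10 UMIs, 42 in the Xist cells (8 shared), 58 with at least 5 Mmp9 UMIs (32 shared) and 58 without the 5 Prg4 cells (56 shared). The lower count (33) was 6 at 200 UMIs, 429 at 10 UMIs and 20 with at least 5 Mmp9 UMIs (15 shared). Within 1.5 times of the lower count, it was 23 in the Xist cells (2 shared) and 35 in the Y-linked cells (3 shared). The medians of the septoclast markers (0.13) and of the collagens (0.18) were 0.00822 and 0.013 with at least 5 Mmp9 UMIs. With at least 3 markers the collagens were at 0.00206 and the metaphyseal stromal markers at -0.16 instead of -0.37. With the mean of per-cell CPM the pericyte markers were at 0.73 instead of 0.51.

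Signs reversed for some genes. Without the Prg4 cells Tppp3 was at -0.52, Ly6c1 at -0.98, Igfbp6 at -0.30 and Ly6a at -0.34, and Prg4, by which those cells were chosen, at -1.01. With at least 5 Mmp9 UMIs Igfbp6 was at -0.0096 and Hba-a1 at -0.85. In the Xist cells Cxcl12 was at 0.0053 and Hba-a1 at -0.94, and in the Y-linked cells Aspn was at -0.22, Hba-a1 at -0.58 and Ly6a at -0.82. The cause was not tested. The Mmp9 and Prg4 alternatives were chosen after seeing the data. Depth limits genes near 50 UMIs, which a few cells can decide.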

Other observations

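Relatives of the gate receptors were almost absent from septoclasts. The somatostatin receptor genes Sstr1, Sstr3, Sstr4 and Sstr5 had no UMI in septoclasts of either library. The 10 measured genes of this kind, which also include the leukotriene receptor gene Cysltr1 and the enzymes of leukotriene synthesis Alox5 and Ltc4s, summed to 8.10 CPM in Control septoclasts and 29.7 CPM in Dach1OE septoclasts, against 145 and 133 CPM in the other eligible cells. Of 10 hypoxia and glycolysis genes with at least 50 UMIs, none was past 2-fold above or below the other eligible cells in both libraries. The 7 erythroid markers summed to 202 and 363 CPM in septoclasts, against 1967 and 1956 CPM in the other eligible cells. Of the Dach1OE septoclast UMIs of the haemoglobin gene Hba-a1, 124 of 175 were in 1 cell.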
